A study of Mus musculus with 6 samples.

Results

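The genes described here are 10 components of the inflammasomes and of the NOD receptor pathway, taken by symbol from the 35122 genes of the count table: Nlrp3, Nlrc4, Naip2, Naip5, Nod1, Nod2, Pycard, Casp1, Casp4 and Gsdmd. RNA was measured in the floating adipocyte layer of collagenase-digested epididymal fat from 6 male C57BL/6 mice on standard chow, with 1 library for each mouse. The 3 control mice were PU.1 fl/fl and the 3 aPU.1KO mice were AdipoqCre_PU.1 fl/fl, so both groups carried the floxed Spi1 alleles and differed in the presence of Cre. Cre was driven by the adiponectin promoter, which is active in adipocytes, and its target was a single exon of Spi1, the gene of the ETS factor PU.1. The labels place all 6 mice at 10 to 11 months of age, while the study's text describes them as older. Mice of each group are numbered 1 to 3 for reference only.

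Inflammasomes are cytosolic complexes in which a sensor recruits, directly or through the adaptor ASC, the protease caspase-1. Caspase-1 matures IL-1β and IL-18 and cleaves gasdermin D, whose released part forms pores in the plasma membrane. NOD1 and NOD2 sense fragments of bacterial peptidoglycan and act through the kinase RIPK2 on NF-κB and MAP kinases rather than on caspase-1. In fat these genes are best known from resident and recruited macrophages, a lineage that itself depends on PU.1.

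Library totals ran from 20550252 to 24310144 counts in aPU.1KO mice and from 22770714 to 69283842 in control mice, and control mouse 1 was the deepest. Levels below are counts scaled to library size with the TMM factors of edgeR (CPM). Log2 fold changes set the aPU.1KO group against the control group, with p-values from edgeR's quasi-likelihood test adjusted by Benjamini-Hochberg over the 13925 genes tested. Spi1 was at 24.3, 6.35 and 26.7 CPM in the control mice and at 3.20, 1.22 and 4.17 CPM in the aPU.1KO mice (log2 fold change -2.75, SE 0.64, adjusted p = 0.0788). Counts are per gene, so that they do not separate the floxed exon from the others. Macrophage transcripts were present in the adipocyte layer of every mouse: the summed level of 14 macrophage markers was 1540, 495 and 1480 CPM in the control mice and 345, 269 and 327 CPM in the aPU.1KO mice. The summed level of 10 adipocyte markers was 42100 to 45500 CPM in the control mice and 51200 to 55900 CPM in the aPU.1KO mice.

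PU.1 binds purine-rich sites built on GAGGAA, which contains the ETS core GGAA. Promoters of the genes were therefore read for letters around this core. RefSeq gave windows upstream of a start site on GRCm38.p6 for 9 of the 10 genes, 12 windows in all, with no entry for Gsdmd. The 250 bases before each start were searched on both strands. The letters AGGAAGT were found in Pycard, Nlrc4, Naip2 and Naip5, 4 of 9 genes, and in 7.69% of 32851 such windows over the genome. In these 4 genes a match lay within 100 bases of the start, where 3.66% of all windows held one. The letters AGGAAGT were chosen after these windows had been read, so that the counts are a description. Here and below, matches are counted by gene but the genome shares by window, and Nlrp3, Nod1 and Casp4 had 2 windows each. The 100 bases that precede the start are shown for the 4 genes with a match, and for 3 genes without one: Nlrp3 and Nod2, whose levels were lower in every aPU.1KO mouse, and Nod1, whose log2 fold change was near 0. Genes with and without the letters were thus among those with lower levels (Nlrp3 -3.13 and Nod2 -1.34 on the log2 scale lacked them). Casp1, at -1.08 with overlapping groups, also lacked them. No relation between the letters and the fold changes was tested. Sequences are 5′ to 3′ on the strand of the gene, and capitals mark the letters found, which in each case are read on the opposite strand (AGGAAGT, and in Pycard the longer GAGGAAGT).
Pycard: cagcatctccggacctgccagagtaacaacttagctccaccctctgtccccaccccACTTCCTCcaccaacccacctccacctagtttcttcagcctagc
Nlrc4: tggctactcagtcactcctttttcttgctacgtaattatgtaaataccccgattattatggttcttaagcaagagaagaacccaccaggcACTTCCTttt
Naip2: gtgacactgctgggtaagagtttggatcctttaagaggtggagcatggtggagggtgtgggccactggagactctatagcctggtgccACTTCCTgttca
Naip5: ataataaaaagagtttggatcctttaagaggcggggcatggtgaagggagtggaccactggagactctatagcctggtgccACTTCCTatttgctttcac
Nod1: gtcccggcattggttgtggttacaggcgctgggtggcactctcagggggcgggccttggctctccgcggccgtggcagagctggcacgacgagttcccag
Nlrp3: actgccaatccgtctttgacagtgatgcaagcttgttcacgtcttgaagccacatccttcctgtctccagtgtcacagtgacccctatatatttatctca
Nod2: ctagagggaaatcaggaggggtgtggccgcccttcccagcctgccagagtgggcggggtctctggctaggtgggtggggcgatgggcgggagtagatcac

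The windows lie at chr7:127993868-127993967 (Pycard, minus strand), chr17:74459109-74459208 (Nlrc4, minus strand), chr13:100202123-100202222 (Naip2, minus strand), chr13:100247337-100247436 (Naip5, minus strand), chr6:54972613-54972712 (Nod1, minus strand), chr11:59541469-59541568 (Nlrp3, plus strand, the upstream one of its 2 windows) and chr8:88647247-88647346 (Nod2, plus strand). The match began 44 bases before the start in Pycard, 10 in Nlrc4, 12 in Naip2 and 19 in Naip5. Nlrc4 held another match 106 bases before the start. The RefSeq start of Nlrc4 lies 34 bases inside the gene as GENCODE annotates it, so that its nearer match is within the GENCODE transcript. The RefSeq start of Naip5 lies 1013 bases upstream of the GENCODE one. Naip2 and Naip5 are paralogs, so that they are not independent examples.

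The 8 letters GAGGAAGT, which contain AGGAAGT, were found in Pycard and in 2.44% of all windows. The shorter GAGGAA, which overlaps both, was found in Pycard, Casp1 and Nlrp3, and in 23.3% of all windows. In Nlrp3 it was found 3 times, in the other window, of a start site 1118 bases inside the gene. Neither the ETS-IRF composite element nor a tandem GAAA element, in which 2 free bases part the repeats, was found in the windows of the 9 genes, against 2.3% and 2.98% of all windows. Nod1, Nod2 and Casp4 held none of the letters searched. A match is not a bound site, and the absence of one says only that the letters are not in this window.

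Across the 10 genes, the inflammasome sensors, the adaptor gene Pycard and Nod2 had lower levels in the adipocyte layer of each aPU.1KO mouse, although no adjusted p in edgeR was under 0.05, while Nod1 and Casp4 had log2 fold changes near 0. In 6 genes (Nlrp3, Nlrc4, Naip2, Naip5, Pycard and Nod2) the highest aPU.1KO mouse was below the lowest control mouse, a pattern shown by 15.5% of all genes tested. In the other 4 genes the groups overlapped. At an adjusted p under 0.05, edgeR called 0 of the 10 genes lower, against 0.18% of all genes tested. At an unadjusted p under 0.05 it called 7 lower and 0 higher, where 13.7% of all genes were called lower and 11.9% higher. DESeq2, the tool named in the study's methods, called 6 lower at an adjusted p under 0.05, against 7.48% of all genes it adjusted. Without control mouse 2, edgeR also called 6 lower at an adjusted p under 0.05 (6.93% of all genes), namely the first 5 of the non-overlapping genes and Casp1, while Nod2 did not pass. The median log2 fold change of the 10 genes was -1.53, beside 0.01 over all genes tested. All 10 passed the filter on low counts, but Nlrp3 and Nod2 were over its level of 0.433 CPM in only 2 of the 3 aPU.1KO mice and passed through the control mice.

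**Figure D1:**
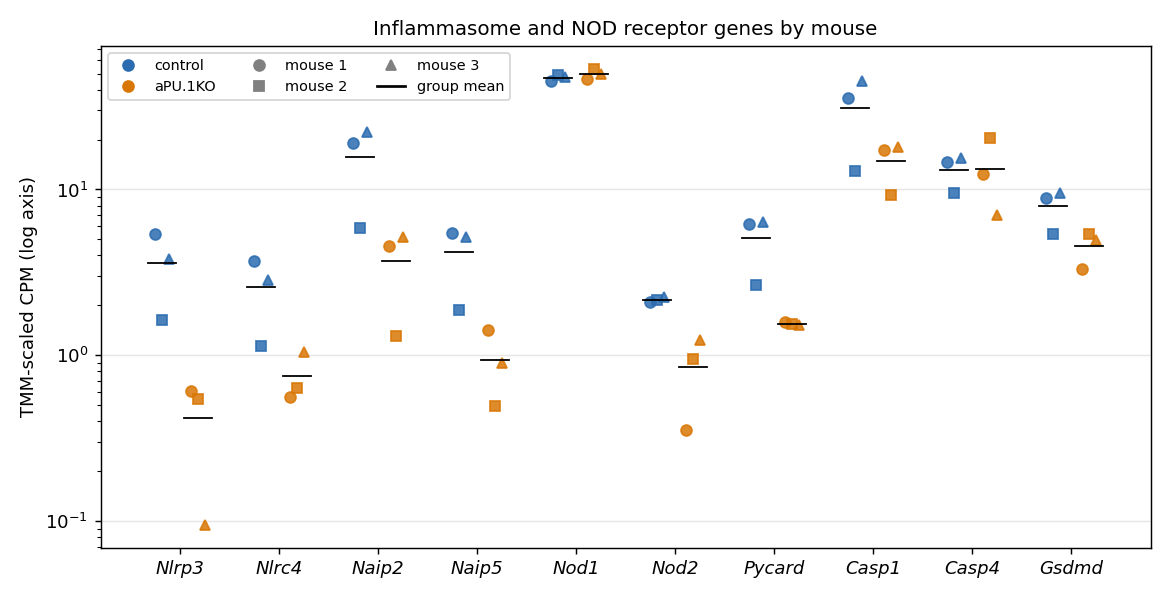
Level of each of the 10 genes in every mouse, in TMM-scaled CPM on a log axis, with control mice in blue, aPU.1KO mice in orange, a marker shape for each mouse number and a black line at the group mean. Nlrp3, Nlrc4, Naip2, Naip5, Nod2 and Pycard show no overlap between the groups, whereas Nod1 sits between 45.3 and 53.5 CPM in all 6 mice.

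NLRP3 is the sensor that responds to potassium efflux, crystals and other signs of cell stress. Nlrp3 (ENSMUSG00000032691; chromosome 11, 59541568 to 59566956 in GRCm38) was at 5.40, 1.62 and 3.81 CPM in the control mice and at 0.61, 0.542 and 0.0947 CPM in the aPU.1KO mice. It had the largest difference of the 10 genes, with a mean 8.68-fold higher in control mice. Its counts were 392, 37 and 96 in the control mice and 12, 12 and 2 in the aPU.1KO mice, so that its value in aPU.1KO mouse 3 rests on almost no counts. The log2 fold change was -3.13 (SE 0.66, 95% interval -4.71 to -1.55), with an adjusted p of 0.0775 in edgeR and of 0.00013 in DESeq2. With aPU.1KO mouse 3 left out, the log2 fold change was -2.66 (adjusted p = 0.0865, edgeR).

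NLRC4 assembles an inflammasome after NAIP proteins have bound bacterial ligands, with NAIP5 recognizing flagellin and NAIP2 the inner rod of type III secretion systems. Nlrc4 (ENSMUSG00000039193; chromosome 17, 74425438 to 74459142) was at 3.72, 1.14 and 2.86 CPM in the control mice and at 0.559, 0.633 and 1.04 CPM in the aPU.1KO mice. The highest aPU.1KO mouse came close to the lowest control mouse, and the log2 fold change was -1.80 (SE 0.50, adjusted p = 0.098 in edgeR and 0.0145 in DESeq2).

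Naip2 (ENSMUSG00000078945; chromosome 13, 100144063 to 100202092) was at 19.2, 5.87 and 22.2 CPM in the control mice and at 4.57, 1.31 and 5.16 CPM in the aPU.1KO mice. Its log2 fold change was -2.11 (SE 0.63, adjusted p = 0.108 in edgeR and 0.00481 in DESeq2). In both groups mouse 2 was the lowest, and control mouse 2 lay just above aPU.1KO mouse 3. Naip5 (ENSMUSG00000071203; chromosome 13, 100211739 to 100246323) was at 5.43, 1.88 and 5.20 CPM in the control mice and at 1.42, 0.497 and 0.90 CPM in the aPU.1KO mice. Its log2 fold change was -2.16 (SE 0.53, adjusted p = 0.085 in edgeR and 0.00175 in DESeq2).

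The Naip genes are closely related neighbours on chromosome 13, and the division of reads between them is uncertain. Of the distinct stretches of 31 bases in annotated transcripts, 53.1% of those of Naip5 and 32.8% of those of Naip2 also occur in another gene, mostly another Naip gene. The summed counts of Naip1, Naip2, Naip3, Naip5 and Naip6 do not depend on that division. This sum was at 29.6, 10.7 and 31.6 CPM in the control mice and at 8.74, 2.80 and 9.33 CPM in the aPU.1KO mice (log2 fold change -1.79, SE 0.55, adjusted p = 0.113 in edgeR). The groups did not overlap in the sum either. Naip2 gave the largest part of the sum in every mouse. Naip1, named after its values had been seen, had a positive log2 fold change with overlap (0.29, SE 0.48, adjusted p = 0.739 in edgeR).

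ASC, the product of Pycard, links NLRP3 and other pyrin-domain sensors to caspase-1. Pycard (ENSMUSG00000030793; chromosome 7, 127989708 to 127993867) was at 6.17, 2.67 and 6.38 CPM in the control mice and at 1.58, 1.54 and 1.52 CPM in the aPU.1KO mice. The aPU.1KO mice were almost equal (1.54 ± 0.0303 CPM, SD, n = 3), while the control mice were spread (5.07 ± 2.09 CPM, SD, n = 3). The log2 fold change was -1.72 (SE 0.36, 95% interval -2.57 to -0.87), with an adjusted p of 0.0766 in edgeR and 0.000513 in DESeq2. An unclassified antisense gene, Gm45205, overlaps 12.8% of the exon length of Pycard, and the sources used here do not state whether reads were assigned by strand.

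Caspase-1 is the effector protease of the canonical inflammasomes. Casp1 (ENSMUSG00000025888; chromosome 9, 5298517 to 5307265) was at 35.6, 13.0 and 45.0 CPM in the control mice and at 17.2, 9.22 and 18.0 CPM in the aPU.1KO mice. Control mouse 2 lay below 2 of the aPU.1KO mice, so that the groups overlapped. The log2 fold change was -1.08 (SE 0.46, 95% interval -2.18 to 0.02, adjusted p = 0.202 in edgeR and 0.0869 in DESeq2). Without control mouse 2 it was -1.45, with an adjusted p of 0.0371 in edgeR.

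Casp4 encodes mouse caspase-11, which binds cytosolic lipopolysaccharide and cleaves gasdermin D without a canonical sensor. Casp4 (ENSMUSG00000033538; chromosome 9, 5308828 to 5336783), the neighbour of Casp1, was at 14.6, 9.5 and 15.4 CPM in the control mice and at 12.4, 20.4 and 7.01 CPM in the aPU.1KO mice. The aPU.1KO mice spanned the whole control range, with mouse 2 the highest and mouse 3 the lowest of all 6. The log2 fold change was 0.01 (SE 0.38, 95% interval -0.90 to 0.92, adjusted p = 0.987), and it was -0.45 (adjusted p = 0.424) without aPU.1KO mouse 2. Its sign also differed between scalings and tools, as the closing section gives. The interval leaves room for a difference in either direction.

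The count ratio of Casp1 to Casp4, within each library, was 2.44, 1.37 and 2.93 in the control mice and 1.39, 0.451 and 2.57 in the aPU.1KO mice. The groups overlapped in this ratio. The library of aPU.1KO mouse 2 was the only one in which Casp4 counts exceeded Casp1 counts.

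Gasdermin D is the pore-forming substrate of both caspases. Gsdmd (ENSMUSG00000022575; chromosome 15, 75862327 to 75867408) was at 8.84, 5.38 and 9.48 CPM in the control mice and at 3.30, 5.42 and 4.97 CPM in the aPU.1KO mice. Control mouse 2 and aPU.1KO mouse 2 were nearly equal, so that the groups overlapped by a hair. The log2 fold change was -0.79 (SE 0.28, 95% interval -1.46 to -0.12), with an unadjusted p of 0.0268 and an adjusted p of 0.144 in edgeR and of 0.067 in DESeq2.

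NOD1 senses peptidoglycan fragments that contain diaminopimelic acid, and NOD2 senses muramyl dipeptide. Nod1 (ENSMUSG00000038058; chromosome 6, 54923949 to 54972612) was at 45.3, 48.8 and 47.9 CPM in the control mice and at 46.6, 53.5 and 50.0 CPM in the aPU.1KO mice. It was the most evenly measured of the 10 genes, with a log2 fold change of 0.08 (SE 0.08, 95% interval -0.11 to 0.27, adjusted p = 0.559). Nod2 (ENSMUSG00000055994; chromosome 8, 88647315 to 88688474) was at 2.08, 2.14 and 2.26 CPM in the control mice and at 0.356, 0.949 and 1.23 CPM in the aPU.1KO mice. The control mice were close together, unlike in the other 5 non-overlapping genes, where control mouse 2 was well below the other control mice. The log2 fold change of Nod2 was -1.34 (SE 0.41, 95% interval -2.32 to -0.36, adjusted p = 0.114 in edgeR and 0.0323 in DESeq2).

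The 2 NOD receptors thus stood in a different count ratio in the groups. There were 21.8, 22.8 and 21.2 Nod1 counts for each Nod2 count in the control mice, and 131, 56.3 and 40.6 in the aPU.1KO mice. The first of these rests on 7 counts of Nod2. The ratio was computed after the values of both genes had been seen and was not tested.

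**Figure D2:**
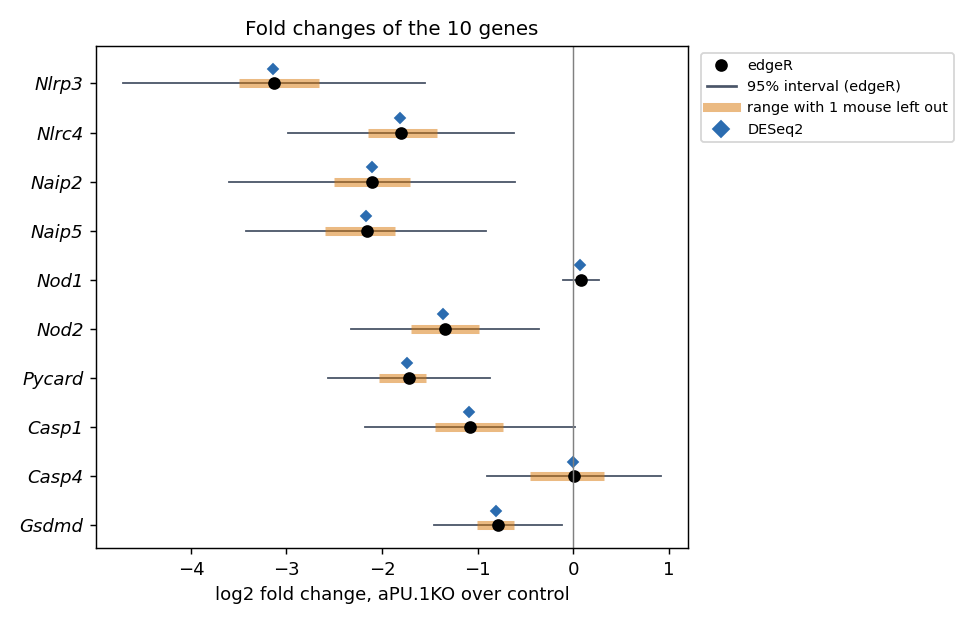
Log2 fold change of each gene, aPU.1KO over control, with edgeR estimates as black dots, their 95% intervals as thin lines, the range with each mouse left out in turn as orange bars, and DESeq2 estimates as blue diamonds. The leave-one-out range stays below 0 for 8 genes, above 0 for Nod1 (0.03 to 0.12), and crosses 0 for Casp4 (-0.45 to 0.32).

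Per kilobase of exon, Casp1 and Nod1 were the most abundant of the 10 transcripts. In the control mice Casp1 was at 20.8 ± 11.0 CPM per kb and Nod1 at 9.32 ± 0.362 (SD, n = 3), and these ranges overlapped. Casp4 (3.55), Gsdmd (3.32) and Naip2 (3.25 CPM per kb) followed, apart from Nod1 but not from each other. Pycard (1.34), Nlrp3 (0.889), Naip5 (0.801), Nlrc4 (0.535) and Nod2 (0.431 CPM per kb) came last, and no neighbouring pair from Casp4 downward was separated.

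In the aPU.1KO mice Casp1 (9.90 ± 3.25 CPM per kb) and Nod1 (9.85 ± 0.676, SD, n = 3) were level. Casp4 (3.58) and Gsdmd (1.92 CPM per kb) came next, separated from Nod1 above and from Naip2 (0.76) below. Naip2 and Pycard (0.406 CPM per kb) overlapped, and Pycard stood apart from the 4 lowest genes, which were Naip5 (0.181), Nod2 (0.169), Nlrc4 (0.155) and Nlrp3 (0.102 CPM per kb). Nlrp3 was thus 7th of the 10 levels in the control mice and the lowest in the aPU.1KO mice, though it overlapped Nlrc4 in both groups.

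Macrophage markers differed between the groups in the same direction as most of these genes. At an unadjusted p under 0.05, edgeR called 12 of the 14 markers lower and 0 higher, where 13.7% and 11.9% of all genes were called. Their median log2 fold change was -1.97, beside 0.01 over all genes tested. The groups did not overlap in 11, with the aPU.1KO mice lower, a pattern shown by 15.5% of all genes tested. Of the 12, 1 (Fcgr1) was under the filter level of 0.433 CPM in at least 1 aPU.1KO mouse. Adgre1, the gene of the macrophage surface protein F4/80, had the lowest value (-2.60, adjusted p = 0.085). Lyz2, the lysozyme of myeloid cells, gave the largest part of the sum, with 636, 143 and 653 CPM in the control mice and 134, 62.1 and 103 CPM in the aPU.1KO mice. Mrc1, the mannose receptor, passed an adjusted p under 0.05 (0.0389), whereas Cd163 (log2 fold change 0.29) and Mertk (0.06) were the 2 markers with a positive value. Lyz2, Mrc1 and Mertk were named after their values had been seen. In bulk RNA, fewer cells of a type and less RNA per cell cannot be told apart. The part of macrophage RNA in the lower levels of the inflammasome genes was not tested.

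Set against the summed counts of the 14 markers in the same library, the 10 genes behaved in 3 ways. Nlrp3 stood at 3.51, 3.27 and 2.58 counts for every 1000 macrophage marker counts in the control mice and at 1.77, 2.02 and 0.29 in the aPU.1KO mice, still without overlap. The aPU.1KO values rest on only 12, 12 and 2 counts of Nlrp3, so that this separation is imprecise. Pycard (4.01, 5.39 and 4.33 against 4.56, 5.71 and 4.64), Nlrc4 (2.42, 2.30 and 1.94 against 1.62, 2.35 and 3.19), Naip5 (3.53, 3.80 and 3.52 against 4.12, 1.85 and 2.75), Naip2 and Nod2 overlapped between the groups. Casp1 was higher relative to the markers in every aPU.1KO mouse, at 23.2, 26.3 and 30.5 in the control mice and at 49.9, 34.3 and 55.0 in the aPU.1KO mice.

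Nod1 (29.5, 98.6 and 32.5 against 135, 199 and 153 counts for every 1000 marker counts) and Casp4 (9.49, 19.2 and 10.4 against 35.9, 76.0 and 21.4) were also higher relative to the markers in every aPU.1KO mouse. Gsdmd was at 5.75, 10.9 and 6.42 in the control mice and at 9.57, 20.2 and 15.2 in the aPU.1KO mice, with overlap. These quotients are descriptions of the libraries and carry no test. Their denominator, the marker sum, was lower in every aPU.1KO mouse. Nod1 and Casp4 had log2 fold changes near 0 (0.08 and 0.01), and a gene with an unchanged level also rises in such a quotient.

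**Figure D3:**
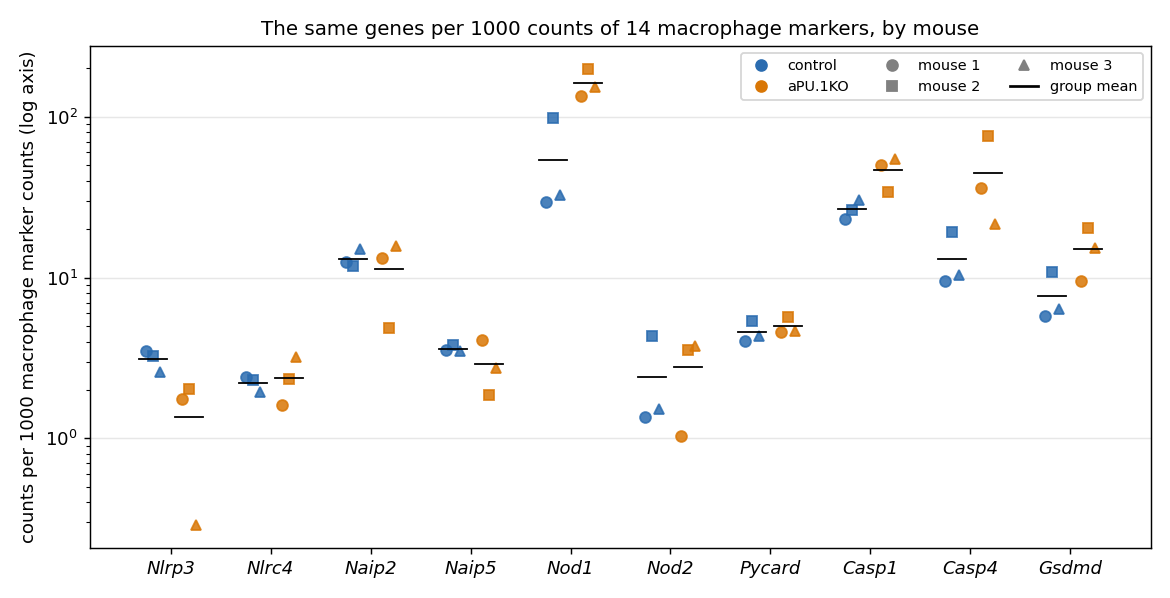
Counts of each gene for every 1000 counts of the 14 macrophage markers in the same library, on a log axis, with symbols as in the plot of levels by mouse. Nlrp3, with 12, 12 and 2 counts in the aPU.1KO mice, remains lower without overlap. Nod1, Casp1 and Casp4 are higher without overlap, where the summed marker level itself is lower in every aPU.1KO mouse, and the other 6 genes overlap.

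Other cell types were read from their markers in the same way, and the counts of lower and higher markers stand beside the 13.7% and 11.9% of all genes called at the same threshold. Nothing is read from a single call in a short list. Among 6 dendritic cell markers, 1 of 4 tested was lower at an unadjusted p under 0.05, and their summed level was 34.2 to 95.8 CPM in the control mice and 20.0 to 28.4 CPM in the aPU.1KO mice. That call and most of the difference in the sum were from Itgax, which macrophages also express. Without Itgax, a step added after seeing the data, the sums were 18.1, 20.3 and 16.6 CPM against 13.7, 18.0 and 18.2 CPM and overlapped. Neutrophil markers summed to 19.5 to 39.9 CPM and 12.7 to 19.5 CPM, with 2 lower and 1 higher of 4 tested, and the defining markers Retnlg and Ly6g had 0 counts and 1 count over all 6 libraries. T and B cell markers summed to 4.77 to 8.29 CPM and 2.59 to 4.59 CPM (1 of 5 lower), and mast cell markers to 16.7 to 17.4 CPM and 7.86 to 14.1 CPM (2 of 2 lower). Progenitor markers (4 of 6 lower, 346 to 506 CPM against 164 to 290 CPM) and hepatocyte markers (6 of 6 lower, 37.8 to 58.8 CPM against 18.0 to 23.7 CPM) did not overlap in their sums, nor did the T and B cell, mast cell and, with Itgax, dendritic cell markers. Among the genes called lower, 4 of the 6 hepatocyte markers, the 1 T and B cell marker (Cd8a), 1 of the 2 mast cell markers (Mcpt4) and 1 of the 2 neutrophil markers (Csf3r) were under the filter level in at least 1 aPU.1KO mouse, so that these counts favour genes low in that group. Endothelial (1 of 6 lower), mesothelial (0 of 4) and epididymal epithelium markers (0 of 1) overlapped in theirs. Of the 10 adipocyte markers 7 were higher at an unadjusted p under 0.05, led by Retn (log2 fold change 1.22, adjusted p = 0.123), and 1, the leptin gene Lep (-0.77, adjusted p = 0.188), was lower, and their sum was higher in every aPU.1KO mouse. The part of these cell types in the levels of the 10 genes was not tested.

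Among other cytosolic sensors, the genes called were all lower. Of 16 listed, 10 were tested, and an unadjusted p under 0.05 was reached by 6 lower genes and 0 higher ones, with 0 passing adjustment in edgeR and 3 passing it in DESeq2 (median log2 fold change -1.43). Of these 6, 5 (Nlrp1a, Nlrp1b, Naip6, Nlrc3 and Aim2) were under the filter level of 0.433 CPM in at least 1 aPU.1KO mouse, so that the count and the median favour genes that were low in that group. With at least 10 counts in every library 1 gene was called lower, and the 6 became 3 without control mouse 1 and 3 without control mouse 3. For comparison, 13.7% of all genes tested were lower and 11.9% higher at the same unadjusted threshold, and DESeq2 called 7.48% lower after adjustment. Naip6, the paralog of Naip5 that also recognizes flagellin, was at 3.37, 1.14 and 2.78 CPM in the control mice and at 0.61, 0.316 and 0.474 CPM in the aPU.1KO mice (log2 fold change -2.40, SE 0.49, adjusted p = 0.0764). The DNA sensor Aim2 (log2 fold change -1.99, adjusted p = 0.0934), the interferon-inducible Ifi204 (-1.11, adjusted p = 0.105) and Nlrc3 (-1.75, adjusted p = 0.115) were the next by p in edgeR. The 3 tested sensors without a negative value were Nlrc5 (0.0), Nlrx1 (0.13) and Naip1 (0.29), named after their values had been seen. Mean levels in control and aPU.1KO mice were 34.3 and 34.4 CPM for Nlrc5 and 34.3 and 37.5 CPM for Nlrx1.

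Genes that license or restrain inflammasomes were mixed. Of 27, all tested, an unadjusted p under 0.05 was reached by 7 lower genes and 2 higher ones (median log2 fold change -0.29), 0 passed adjustment in edgeR, and 5 lower and 1 higher passed it in DESeq2. The 7 became 3 without control mouse 1 and 4 without control mouse 3. Beside these counts, 13.7% of all genes tested were lower and 11.9% higher at the same unadjusted threshold. DESeq2 called 7.48% of all genes it adjusted lower. Syk, the kinase of ITAM receptors, was at 57.8, 17.3 and 52.0 CPM in the control mice and at 13.2, 4.20 and 11.3 CPM in the aPU.1KO mice (log2 fold change -2.16, adjusted p = 0.0902). Pstpip1, a pyrin-binding protein (-2.07, adjusted p = 0.0894), and the ATP-gated channel gene P2rx4 (-0.68, adjusted p = 0.0942) were also lower without overlap. Brcc3, which deubiquitinates NLRP3, had a log2 fold change of 0.36 (adjusted p = 0.105). Nek7, the kinase that NLRP3 needs for assembly, was at 160, 173 and 149 CPM in the control mice and at 173, 162 and 166 CPM in the aPU.1KO mice, and was named after its values had been seen.

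Among 12 products and pore proteins, 10 were tested, and an unadjusted p under 0.05 was reached by 3 lower genes and 0 higher ones (median log2 fold change -0.22), with 0 passing adjustment in edgeR and 1, Il1b, in DESeq2. The 3 became 1 without control mouse 1 and 1 without control mouse 3. Shares over all genes at these thresholds were 13.7% lower and 11.9% higher in edgeR, unadjusted, and 7.48% lower in DESeq2, adjusted. Il1b, a substrate of caspase-1, was at 13.6, 3.98 and 11.9 CPM in the control mice and at 2.29, 1.76 and 2.23 CPM in the aPU.1KO mice (log2 fold change -2.24, SE 0.46, adjusted p = 0.0764 in edgeR and 5.32e-05 in DESeq2). Il1a (-2.27, adjusted p = 0.117) was at 5 counts or fewer in each aPU.1KO mouse. Ninj1, which ruptures the membrane in the last step of pyroptosis, had a log2 fold change of -0.57 (adjusted p = 0.128) with overlap. Il18, the other cytokine substrate, was at 2.12, 1.49 and 2.34 CPM in the control mice and at 1.68, 1.94 and 1.04 CPM in the aPU.1KO mice, with overlap, and was named after its values had been seen.

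In NOD signaling the calls were no more frequent than over all genes, where 13.7% were lower and 11.9% higher at the same threshold. Of 33, 32 were tested, and an unadjusted p under 0.05 was reached by 2 lower genes and 1 higher gene (median log2 fold change 0.02), with 0 passing adjustment in edgeR and 1 in DESeq2. The 2 became 5 when aPU.1KO mouse 2 was left out and 1 when control mouse 1 or 3 was, while the 1 higher became 5 when aPU.1KO mouse 3 was left out and 0 when control mouse 1, control mouse 3 or aPU.1KO mouse 2 was. Slc15a3, an endosomal transporter of muramyl dipeptide, was at 32.9, 6.35 and 34.3 CPM in the control mice and at 6.25, 2.08 and 6.73 CPM in the aPU.1KO mice (log2 fold change -2.30, SE 0.69, adjusted p = 0.111). The adaptor Traf3 had a log2 fold change of -0.40 (adjusted p = 0.155) and the ubiquitin ligase Birc2 one of 0.31 (adjusted p = 0.177). Ripk2, the kinase through which both receptors act, was at 24.4, 25.0 and 24.6 CPM in the control mice and at 27.1, 25.1 and 23.5 CPM in the aPU.1KO mice, and was named after its values had been seen.

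In 2 genes of this list, picked out after their values had been seen, aPU.1KO mouse 2, the mouse with the highest Casp4, stood apart from the other 5. Over the 32 tested genes it was the highest library in 11 and the lowest in 5. Nfkbia, the inhibitor of NF-κB, was at 84.0, 73.0 and 74.8 CPM in the control mice and at 95.5, 223 and 49.0 CPM in the aPU.1KO mice. Tnfaip3, which encodes the deubiquitinase A20, was at 65.5, 37.3 and 55.8 CPM in the control mice and at 74.6, 239 and 20.0 CPM in the aPU.1KO mice. In both genes, as in Casp4, mouse 2 was the highest and mouse 3 the lowest of the 6 libraries, and the part of this in the spread of Casp4 was not tested.

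**Figure D4:**
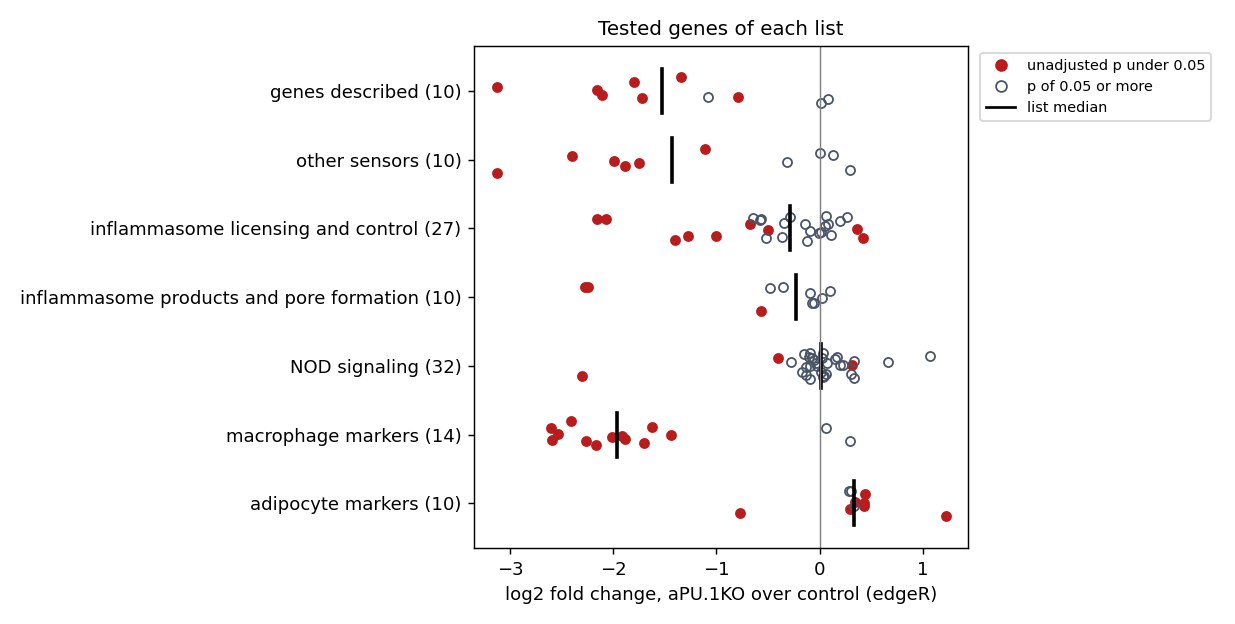
Log2 fold change (edgeR, aPU.1KO over control) of every tested gene of the 10 genes described, the 4 pathway lists and the macrophage and adipocyte markers, with filled red points for an unadjusted p under 0.05, open points for the rest and a black line at the list median. The medians are -1.53 for the 10 genes, -1.43 for other sensors, 0.02 for NOD signaling and -1.97 for macrophage markers.

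For each gene, the tested gene with the most similar course over the 6 libraries was found by the root mean square difference in log2 CPM, each gene centred on its own mean. Naip2 was closest to Cd52, a leukocyte surface glycoprotein (0.136, where the size of Naip2's own variation was 1.35), Naip5 to the nucleotide receptor gene P2ry6 (0.109 against 1.20) and Casp1 to Tmem176b (0.139 against 0.789). Pycard was closest to Dennd1c (0.067 against 0.886), Nlrc4 to the interferon-responsive Epsti1 (0.118 against 0.975) and Nod2 to the potassium channel gene Kcnq1 (0.142 against 0.872). Nlrp3 was closest to Il2rb (0.397 against 1.73). Gsdmd was closest to Obsl1 (0.0486 against 0.51), Casp4 to Dtnb (0.111 against 0.496) and Nod1 to Zfp839 (0.0223 against 0.0765). The 6 libraries in 2 groups allow many genes to share a course, and these neighbours are given as a description.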

How the data were processed

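RNA-seq was done on the adipocyte fraction of 3 control mice and 3 aPU.1KO mice. The authors quantified reads with Salmon and summed them to genes, and the deposited values are estimated counts written as whole numbers, so that no further rounding was needed. The submitters' processing notes name Salmon, FastQC and GRCm38, while the Salmon version and the annotation are not given in the sources used here. Of 35122 genes, 35102 were matched to a symbol in GENCODE M21 (GRCm38), and the unmatched genes hold 0.00188% of counts. Groups were taken from the genotype labels. The study describes the control mice as littermates, and the labels do not say which of these mice share a litter.

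Counts were filtered with filterByExpr, scaled by TMM and tested in R 4.3.3 with edgeR 4.0.16 (glmQLFit with its defaults, glmQLFTest, Benjamini-Hochberg adjustment), with standard errors from the coefficient and the F statistic. Alternatives were RLE and upper quartile factors, a minimum of 10 counts in every library, no filter, DESeq2 1.42.0, limma-voom (limma 3.58.1), robust dispersion, legacy = FALSE, control library 1 thinned to 22770714 counts, and each mouse left out. The summed Naip counts were added after seeing the data. An exact permutation test with 3 mice on each side has 0.1 as its smallest two-sided p and was not used. No pair of libraries was a duplicate. The pipeline was tested on simulated data. Promoter windows are from RefSeq (GRCm38.p6). Figures were drawn with matplotlib 3.10.9.

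The 10 genes and all lists were chosen with earlier results of these data known. Other genes named are, from each pathway list, up to 4 with the smallest unadjusted p under 0.05, the nearest gene of each of the 10 and, among macrophage and adipocyte markers, the extremes. Exceptions are stated where they occur.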

Additional observations from a re-analysis of the deposited data

How the results depend on the processing

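The direction of 9 of the 10 genes was the same under every alternative that gave a value. Casp4, at 0.01 with TMM, had a negative log2 fold change with RLE factors (-0.0038), with at least 10 counts in every library (-0.01), with no filter (-0.01), in DESeq2 (-0.0023), in limma-voom (-0.13) and with control library 1 thinned (-0.01), and with each mouse left out it ran from -0.45 to 0.32. The cause was not tested. The number of the 10 genes lower at an adjusted p under 0.05 was 6 in DESeq2 and ran from 0 to 6 with each mouse left out, where the 6 came without control mouse 2. The other 8 alternatives gave 0. Adjusted p-values over all alternatives ran from 0.00013 to 0.313 for Nlrp3, from 0.000513 to 0.313 for Pycard, from 0.0323 to 0.394 for Nod2 and from 0.0562 to 0.445 for Gsdmd. With at least 10 counts in every library, Nlrp3 and Nod2 were not tested, and other sensors lower at an unadjusted p under 0.05 numbered 1, since fewer genes were tested. Low counts of Nlrp3, Nlrc4, Naip5 and Nod2 in the aPU.1KO mice limit the precision of their values. No paired analysis was possible because the labels give the groups no shared replicate number and do not say which mice are littermates.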
